A study of Homo sapiens with 3 samples.

Results

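A set of 147 genes carried at least 50 MATR3 read clusters in their introns in each of 3 PAR-CLIP replicates, and their introns are described here. A cluster is a stretch of overlapping reads with T-to-C changes. The genes were selected on these measured counts, from the 10393 gene names with an intron cluster in any replicate and the 7383 with one in all 3. The minimum of 50 was passed by 156 genes, or 2.11% of those 7383. Of these, 9 were left out by name: ANKRD11, GRB10, HUWE1, PRRC2B, SLC7A1, SND1, TBCD, THSD4 and TTC28. PVT1 was named with them, but its clusters are not in the intron class, which the tables keep apart from introns of long non-coding RNAs. The remaining 10237 gene names served as the comparison. Because the counts chose the members, their number of clusters and its density are descriptions without a test.

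RNA crosslinked to MATR3 was immunoprecipitated from untreated HEK293 cells of wild-type genotype, a widely used line derived from human embryonic kidney. The 3 libraries are labelled biological replicates and form a single group. No control library or measurement of RNA abundance was used here, so strong binding to few transcripts and weak binding to many cannot be told apart. In PAR-CLIP, cells take up a photoreactive uridine analogue, ultraviolet light crosslinks it to bound protein, and sequencing shows crosslinked uridines as C in place of T.

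Matrin-3 is an abundant nuclear protein with RNA recognition motifs and zinc fingers. It is known to bind introns of unspliced transcripts and to affect the choice of exons, in part together with the pyrimidine-tract protein PTBP1, and mutations in its gene are found in familial motor neuron disease. The RNA motif known for it is AUCUU, written ATCTT in the DNA letters used here. Introns are removed from the primary transcript in the nucleus, so a cluster within an intron marks contact with RNA that was not yet spliced or with an excised intron.

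The sites that came back most firmly show what these clusters look like. A site is a stretch covered by an intron cluster in all 3 replicates on the same strand, and sites were ranked by the smallest of their 3 read counts. Read counts of a site are those of the whole clusters, which can reach beyond the shared stretch. The stretches below are the parts shared by all 3 replicates at 9 of the leading sites, each with a shared part of at least 39 nt. They are given 5′ to 3′ on the transcript strand, with hg38 positions. Capitals mark the longest run of only C and T.
POLA1, chrX:24859289-24859434, plus strand: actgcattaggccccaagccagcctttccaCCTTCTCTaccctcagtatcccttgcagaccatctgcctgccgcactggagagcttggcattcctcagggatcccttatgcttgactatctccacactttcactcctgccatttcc
UCK2, chr1:165868509-165868646, plus strand: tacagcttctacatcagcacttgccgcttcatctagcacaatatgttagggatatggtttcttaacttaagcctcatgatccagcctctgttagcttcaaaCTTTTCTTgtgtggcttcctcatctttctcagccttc
BCAT1, chr12:24937367-24937418, minus strand: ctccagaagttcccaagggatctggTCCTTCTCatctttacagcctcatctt
GNB1, chr1:1800576-1800614, minus strand: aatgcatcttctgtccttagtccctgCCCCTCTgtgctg
XPO6, chr16:28109435-28109522, minus strand: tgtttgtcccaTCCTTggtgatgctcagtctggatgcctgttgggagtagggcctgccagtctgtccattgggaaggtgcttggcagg
LRP6, chr12:12231299-12231359, minus strand: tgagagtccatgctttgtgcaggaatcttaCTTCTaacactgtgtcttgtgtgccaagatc
ZNRF3, chr22:28892101-28892143, plus strand: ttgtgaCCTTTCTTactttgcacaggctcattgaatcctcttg
CHD2, chr15:92934902-92934947, plus strand: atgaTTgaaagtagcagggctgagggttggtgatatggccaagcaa
NOL10, chr2:10615728-10615776, minus strand: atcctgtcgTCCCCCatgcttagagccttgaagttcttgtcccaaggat

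The POLA1 site, in intron 34 of 36 of the gene for the catalytic subunit of the primase-bound DNA polymerase, had 46, 103 and 39 reads in replicates 1, 2 and 3. In UCK2, a uridine-cytidine kinase, the site in the first intron had 39, 52 and 60 reads. BCAT1, a branched-chain amino acid transaminase, had 104, 194 and 38 reads in clusters of 166, 267 and 118 nt in its first intron. The 52 nt shared by these clusters hold ATCTT at 2 places. The UCK2, GNB1 and LRP6 stretches hold ATCTT at 1 place each. The other 5 printed stretches hold no ATCTT, which says only that these letters are not in the shared part. Capital runs were between 2 nt in CHD2, a chromatin remodeller, and 8 nt in POLA1, UCK2, BCAT1 and ZNRF3. At SMARCC1, a subunit of the BAF remodelling complex, the 3 clusters had 74, 37 and 31 reads but shared only 6 nt. At NDUFA10, a subunit of respiratory complex I, they had 50, 65 and 23 reads and shared 10 nt. Each cluster also has a deposited mode location, a single position that need not be a T and is not a count of conversions. Even among the leading 12 sites this location differed between replicates, by 9 nt in NDUFA10 and by 189 nt in SMARCC1.

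The intron class leaves out introns of long non-coding RNAs, and all 147 members are protein-coding genes, 70 of them on the plus strand. They lie on 22 chromosomes, with 14 on chromosome 1, 12 on chromosome 2 and 11 on chromosome 3. Grouped by the best known role of their proteins, after their values were seen, 35 act in chromatin and transcription. These include ARID1A, ARID1B, CAMTA1, CDYL, CHD2, CREBBP, CTBP2, CUX1, E2F3, EHMT1, EP400, FOXJ3, FOXN3, GATAD2A, HDAC9, HIRA, KANSL1, KDM6A, KMT2C, MED13L, MED27, MLLT10, RERE, RUVBL1, SKI, SMARCC1, SMCHD1, SMYD3, TBL1X, TCF12, TEAD1, TET3, TLE3 and ZFHX3. Chromosome maintenance and mitosis account for 8 genes, CDK5RAP2, MAD1L1, PDS5B, PINX1, POLA1, PRKDC, STAG1 and TNKS. RNA binding, RNA processing and translation account for 19, among them AGO2, CARS, DDX10, DROSHA, HDLBP, IARS, IGF2BP2, IGF2BP3, LARP1, LARP4B, LRPPRC, MSI2, NOL10, RBFOX2, RCL1, SRPK1, THOC2 and TNRC6A. Signalling holds 25 genes, AGAP1, AKAP13, ARHGEF7, ASAP1, BMPR1A, CCNY, CDC42BPA, DOCK3, DYRK1A, FGFR2, GNB1, INPP4A, LRP6, MAP4K3, NF1, PDE8A, PPP6R3, PTK2, PTPRG, RPTOR, SIK3, STK24, TRAF3, TRIO and VAV2. The cytoskeleton, cell polarity and transport hold 16, BICD1, CAPZB, CLASP1, DENND5A, DIAPH3, DLG1, EPS15L1, KIF1A, MAP4, MICAL3, MPRIP, MYH9, PARD3, RANBP3, TBC1D14 and XPO6. Ubiquitin ligases, their substrate receptors and deubiquitinases number 8, ARIH1, FBXW7, HERC1, UBR4, USP10, USP34, USP9X and ZNRF3. Metabolism, glycans and membrane transport hold 15, among them ACACA, BCAT1, CACNB2, EXT1, GALNT2, GPC3, GPHN, LCLAT1, LRRC8D, MTHFD1L, NDUFA10, SLC38A1, ST6GAL1 and UCK2. The other 21 were not placed in a group, although some have known roles: ADGRV1, ANKRD17, AUTS2, CCDC85C, CMIP, CMSS1, DIP2B, DLGAP1, FAM120A, FAM53B, NAA15, NUDCD3, PCNX, PLCL2, PPFIA2, RBM33, SERGEF, TMEM181, WWC2, XKR6 and ZFAND3. The groups are a description of the set, and none was tested for enrichment.

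The role groups overlapped in their counts. The median over members of the mean intron cluster count was 70.7 in the chromatin group, 69.5 in chromosome maintenance, 61.3 in the RNA group, 70.3 in signalling, 66.5 in the cytoskeletal group, 66.3 in the ubiquitin group and 72.0 in the metabolic group. Density, the number of intron clusters per 100 kb of annotated intron, had a median of 52.7 in the RNA group and 32.1 in signalling. Median intron length ran the other way, at 122 kb in the RNA group and 225 kb in signalling. The RNA group includes the Argonaute protein AGO2 with its partner TNRC6A, the miRNA-processing nuclease DROSHA and the mRNA-binding proteins IGF2BP2 and IGF2BP3. The ubiquitin group includes the deubiquitinases USP9X, USP10 and USP34.

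The members held 11356, 11143 and 10385 of the 96497, 95588 and 90181 intron clusters of replicates 1, 2 and 3. That is 11.8%, 11.7% and 11.5% of all intron clusters, and 12.3%, 12.1% and 11.7% of the reads in them. The mean count per member ranged from 51 to 148 with a median of 69.7. The other genes with an intron cluster in all 3 replicates had a median of 7.33. No cluster in the tables had fewer than 4 reads, 2 conversion locations or 20 nt, so weaker contacts were not seen. The size of the set rests on small clusters, since 32.7%, 24.6% and 34.1% of member clusters had at most 2 distinct reads. With clusters of at least 3 distinct reads 33 genes passed the minimum, and with at least 3 conversion locations 9 genes passed.

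VAV2, an exchange factor that activates small GTPases, had the most intron clusters, with 141, 195 and 109 in replicates 1, 2 and 3. MAD1L1, a spindle checkpoint protein, had 133, 172 and 96, and RPTOR, the scaffold of the growth-controlling mTORC1 kinase, had 123, 165 and 108. Replicate 2 was the highest and replicate 3 the lowest in all 3 of these genes. AUTS2, a chromatin-associated protein of neuronal development, showed another order, with 170, 108 and 106. PARD3, a cell polarity scaffold, had 139, 125 and 106, and TBL1X, a corepressor subunit, had 131, 115 and 106. PPP6R3, a regulatory subunit of a protein phosphatase, was nearly level at 113, 117 and 118. MPRIP, a myosin phosphatase partner, had 117, 124 and 97. GPC3, a cell-surface proteoglycan, had 112, 108 and 98, and PDE8A, a cyclic AMP phosphodiesterase, had 119, 95 and 104.

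**Figure D1:**
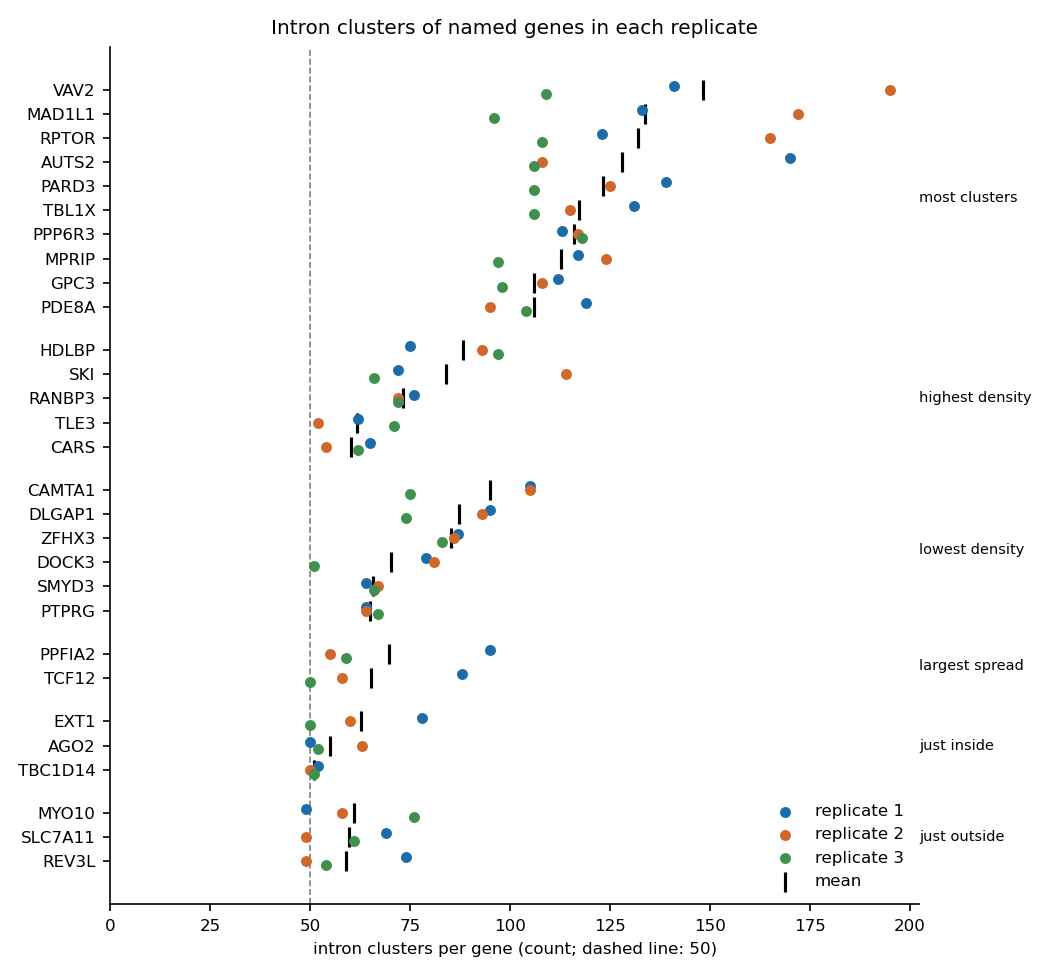
Number of intron clusters (x axis, count) in replicates 1, 2 and 3 (coloured points) and their mean (black bar) for named members and the 3 genes just outside the minimum (y axis); the dashed line marks 50. VAV2 ranges from 109 to 195, while PPP6R3 stays between 113 and 118.

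The edge of the set is not sharp. TBC1D14, a regulator of membrane traffic, was just inside with 52, 50 and 51 intron clusters. AGO2 had 50, 63 and 52, and EXT1, a heparan sulfate polymerase, had 78, 60 and 50. Just outside, MYO10, an unconventional myosin, had 49, 58 and 76. SLC7A11, the cystine transporter, and REV3L, the catalytic subunit of a translesion DNA polymerase, had 49 in their lowest replicate. There were 107 genes with 40 to 49 in their lowest replicate. A minimum of 40 gave 254 genes and a minimum of 60 gave 80.

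Members are long genes, but length alone does not place a gene among them. Their annotated introns summed to a median of 179 kb, from 37.8 kb in TLE3 to 1170 kb in AUTS2, against 41.5 kb in the other genes with clusters in all 3 replicates. Across 7320 genes the mean cluster count and the intron length had a Spearman correlation of 0.41, and within the 147 members it was 0.37. Both are across genes, which share libraries and are not independent replicates. Among genes with 200 to 500 kb of intron 57 of 604 were members, and among those with at least 500 kb 12 of 129. Of the 660 other genes with more than 200 kb of intron, 290 had a mean of fewer than 10 intron clusters. Only 2 of 4024 genes with less than 50 kb of intron were members, TLE3 and CARS.

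**Figure D2:**
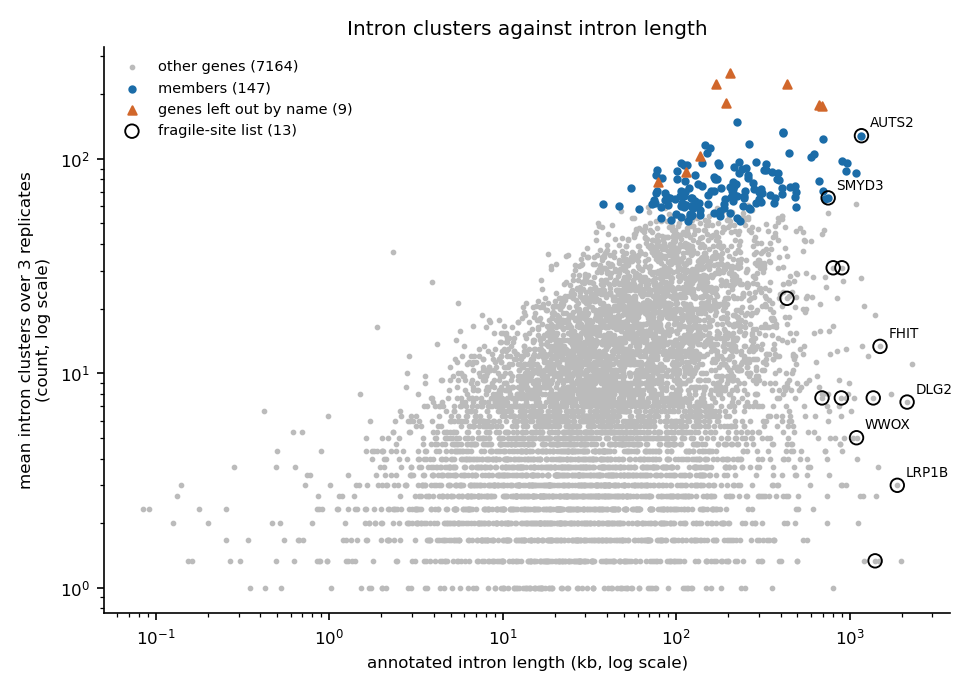
Mean number of intron clusters over 3 replicates (y axis, count, log scale) against annotated intron length (x axis, kb, log scale) for each gene; blue points are the 147 members, triangles the 9 genes left out by name, grey points the 7164 other genes, and circles genes of a fragile-site list. AUTS2 and SMYD3 are the circled genes among the members, while the circled FHIT, WWOX, LRP1B and DLG2 lie far lower at similar or greater length.

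The median density of members was 40.6 intron clusters per 100 kb of intron, and the range ran from 7.85 in ZFHX3 to 163 in TLE3. Other genes with introns over 100 kb (n = 1687) had a median of 12 clusters and a median density of 5.94. Short members have to be dense to reach 50 clusters, and density and intron length within the set had a Spearman correlation of -0.94 across the 147 genes. Clusters covered little of the sequence: the median member had 1.95% of its intron bases inside a cluster in a replicate, from 0.353% in ZFHX3 to 9.36% in CARS.

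TLE3, a Groucho-type corepressor, had 62, 52 and 71 clusters in 37.8 kb of intron, or 163 ± 25.2 per 100 kb (SD, n = 3). RANBP3, a cofactor of nuclear export, followed with 76, 72 and 72 clusters and 134 ± 4.23 per 100 kb. CARS, the cysteinyl-tRNA synthetase gene now called CARS1, had 65, 54 and 62 clusters and 129 ± 12.2 per 100 kb. HDLBP, a multi-KH-domain RNA-binding protein, had 75, 93 and 97 clusters and 114 ± 15.1 per 100 kb. SKI, a repressor of SMAD signalling, had 72, 114 and 66 clusters, so that its 110 ± 34.4 per 100 kb rests on an uneven set. Genes next to each other in this order overlapped in their replicate values.

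At the sparse end, ZFHX3, a homeobox transcription factor, had 87, 86 and 83 clusters in 1087 kb of annotated intron, or 7.85 ± 0.19 per 100 kb. SMYD3, a lysine methyltransferase, had 64, 67 and 66, and PTPRG, a receptor tyrosine phosphatase, had 64, 64 and 67. DLGAP1, a postsynaptic scaffold, had 95, 93 and 74, CAMTA1, a calmodulin-binding transcription factor, had 105, 105 and 75, and DOCK3, a Rac exchange factor, had 79, 81 and 51. Densities of the last 5 were close to each other, with 8.73 ± 0.20 per 100 kb in SMYD3, 9.01 ± 0.24 in PTPRG and 9.81 ± 1.79 in CAMTA1.

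The annotated gene model sets some of these densities. In the median member the clusters of the 3 replicates extended over 94.8% of the gene's span, and in 109 members over more than 90%. In 4 members they extended over less than 50%. ZFHX3 clusters lay within 268.8 kb, 24.2% of its span, and over the introns in that stretch the density was 33.0 ± 0.80 per 100 kb. The same measure was 66.8 ± 2.07 in TNRC6A, a scaffold of miRNA silencing, 120 ± 17.3 in LARP1, a regulator of ribosomal protein mRNAs, and 120 ± 10.9 in NDUFA10. Transcripts that start or end inside the longest annotated model were not measured.

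Requiring 50 clusters in every replicate removes genes with a low replicate, so the spread of the members between replicates was set in part by the selection and is only described. After scaling to 100000 intron clusters per replicate, the coefficient of variation (SD over mean) had a median of 11.2%. It was lowest in TNRC6A (57, 57 and 54 clusters; 0.697%), followed by ZFHX3 at 1.26%, WWC2, a Hippo pathway scaffold, at 1.41%, and CDK5RAP2, a centrosomal protein, at 1.60%. It was largest in SKI and in PPFIA2, a synaptic scaffold with 95, 55 and 59 clusters, both at 29.4%. TCF12, a helix-loop-helix transcription factor with 88, 58 and 50 clusters, had 27.9%, and VAV2 27.1%. Ranks of the members by count had a Spearman correlation of 0.66, 0.64 and 0.62 between replicates 1 and 2, 1 and 3, and 2 and 3.

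Replicate 2 deviated with base composition. The log2 ratio of its scaled count to the mean of replicates 1 and 3 was higher at higher GC content of the introns, with a Spearman correlation of 0.38 and Pearson's r of 0.47 across the 147 members. Split into 3 classes of 49 genes by GC, the median log2 ratio was -0.14, -0.05 and 0.07 from low to high GC, and replicate 2 was the higher in 14, 17 and 28 genes. SKI, VAV2 and MAD1L1 had introns of 57.6%, 56.3% and 55.6% GC and were high in replicate 2. RANBP3, CARS and TLE3 had 52.2%, 51.6% and 50.2% GC, but their log2 ratios were -0.07, -0.27 and -0.39. PPFIA2, at 34.4%, and TCF12, at 37.0%, were higher in replicate 1 than in the other two. The relation was also present in 830 other genes with at least 20 intron clusters in each replicate (Spearman correlation 0.27). GC over all intron clusters was 46.8%, 48.0% and 46.8% in replicates 1, 2 and 3. Reads per distinct read in the members were 2.95, 2.37 and 2.95. The part of library composition in these counts was not tested.

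Few clusters came back at the same place. In the members 24.0% ± 0.954 of intron clusters (SD, n = 3) overlapped a cluster of at least 1 other replicate by 1 nt or more on the same strand, and 76.0% ± 0.954 overlapped none. In the other genes 21.1% ± 0.733 overlapped. Where clusters are dense some overlap follows from density alone, so the same clusters were also moved by 1000 nt up and down within the gene. After moving, 13.4% ± 0.287 of member clusters and 10.5% ± 0.396 of the others overlapped. The excess in place over moved was 10.5 ± 0.670 percentage points in the members and 10.6 ± 0.359 in the others. Their difference was -0.0577 ± 0.386 points, smaller than its spread over replicates (exact two-sided sign-flip test over 3 replicates, p = 0.75, Benjamini-Hochberg adjusted over 7 tests 0.75). It was positive without replicate 1 and without replicate 2, at 0.248 and 0.135 points, and -0.506 ± 0.581 against other genes with at least 20 intron clusters in each replicate. With 3 replicates this test cannot give a p below 0.25.

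**Figure D3:**
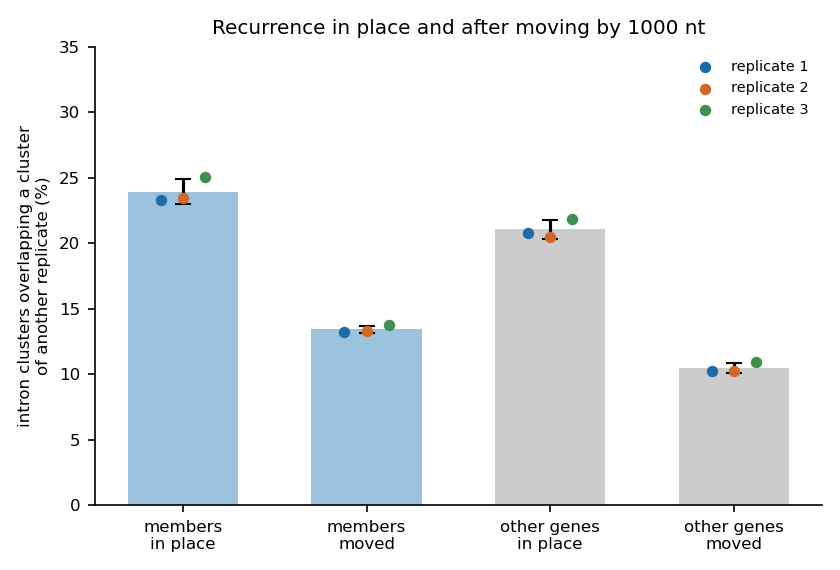
Percent of intron clusters that overlap a cluster of another replicate (y axis), in place and after moving by 1000 nt, for members and other genes; bars are means, error bars the SD over 3 replicates and points the replicates. Members lie higher than other genes both in place (24.0% against 21.1%) and after moving (13.4% against 10.5%).

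Overlap with both other replicates was rarer, at 3.01% ± 0.061 of member clusters and 2.39% ± 0.061 of the others. Member clusters that came back in both had a median of 14.7 ± 1.53 reads and 59 ± 5.20 nt. Those that came back in none had a median of 8.67 ± 0.577 reads and 38 ± 1.73 nt. Other genes were alike, with 15.3 ± 1.15 reads and 59.7 ± 9.50 nt for clusters that came back in both. For those that came back in none they had 8.67 ± 0.577 reads and 37.3 ± 1.15 nt. The cluster with the most reads in a member also seldom came back. In 126 members the leading clusters of the 3 replicates did not overlap in any pair, in 21 members they did in 1 pair, and in no member did all 3 coincide.

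The leading cluster held little of a gene's intron reads, with a median over members of 5.95%. AUTS2 had the lowest share, 2.71%, with leading clusters of 28, 39 and 21 reads at 3 different places. FOXJ3, a forkhead transcription factor, had the highest, 13.8%, with 129, 193 and 71 reads, and none of these 3 clusters overlapped. In CARS the leading clusters had 287, 153 and 50 reads and also lay apart. In RANBP3 they had 96, 264 and 104 reads, and 1 pair overlapped.

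Sites found in all 3 replicates numbered 285 in the members, against 53 after moving. At least 1 such site was present in 128 of 147 members, where 19.0% of the 7320 genes with an intron cluster in all 3 replicates had one. Of the 107 genes just below the minimum 70 also had one, 65.4%, and of all 7164 other genes 1256, or 17.5%. Per 100 clusters there were 2.60 sites in the members, 2.40 in the genes just below and 2.13 in all other genes. The ratio of sites in place to moved sites was 5.38, 4.74 and 6.19 in the same order.

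Most members had few sites. There were 50 members with 1 site, 32 with 2, 24 with 3, 14 with 4, 5 with 5 and 3 with 6. ARID1A, the DNA-binding subunit of the BAF complex, had 6 sites and none after moving. FOXJ3 also had 6 and none after moving, and XPO6, the export receptor of actin, had 6 against 1.5 after moving. ACACA, which makes malonyl-CoA for fatty acid synthesis, and CACNB2, a calcium channel subunit, had 5 each and none after moving. AGO2 had 5 against 1.5 after moving. The 19 members without a site include AUTS2 and SMYD3, both with long introns. The other 17 are AGAP1, CDYL, CLASP1, CTBP2, DDX10, DIP2B, FOXN3, GALNT2, INPP4A, KDM6A, LRPPRC, MSI2, NF1, RBFOX2, SIK3, ST6GAL1 and TET3.

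The shared part of a site was short, with a median of 27 nt and a range from 1 to 146 nt. The smallest of the 3 read counts had a median of 9 and a range from 4 to 39, and 22 of the 285 sites had at least 20 reads in each replicate. The deposited mode location of the cluster differed between replicates by a median of 50 nt. In 7 sites the 3 positions lay within 5 nt of each other, and in 0 sites were they identical.

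The map of ARID1A shows how these values arise in a single gene. It had 64, 55 and 65 intron clusters in 72.9 kb of intron, or 84.1 ± 7.55 per 100 kb. Its leading clusters had 93, 107 and 182 reads and lay at different places. The 6 sites found in all 3 replicates had between 5 and 13 reads in their lowest replicate, and 1 of them shared a single base. The firmest had 28, 23 and 13 reads and shared 55 nt.

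**Figure D4:**
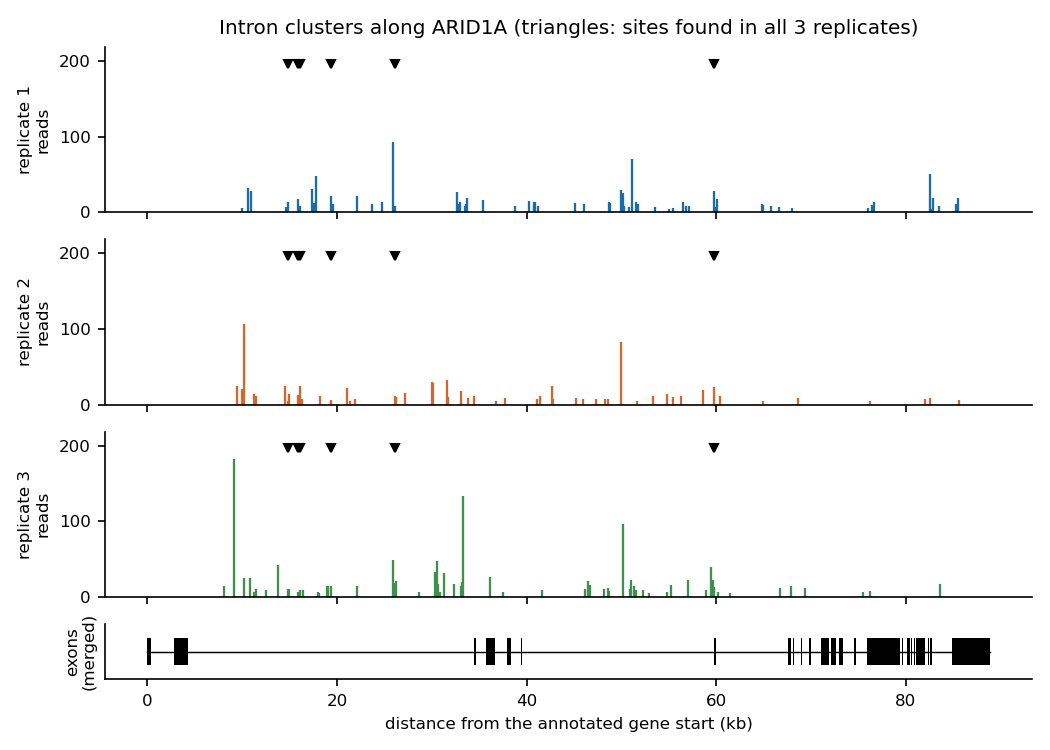
Reads of each intron cluster (y axis, count) along ARID1A by distance from the annotated gene start (x axis, kb) in the 3 replicates; triangles mark the 6 sites found in all 3, and the lowest panel shows the exons of all annotated transcripts merged. The tallest clusters, with 93, 107 and 182 reads, stand at different places in the 3 panels.

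Member clusters thinned out from the 5′ to the 3′ end of the introns. With the introns of each gene joined, the first 10% of their length held 16.1% ± 0.31 of member clusters (SD, n = 3) and the last 10% held 6.10% ± 0.24. The other genes had 16.4% ± 0.50 and 7.56% ± 0.28. Members were above the other genes between 10% and 40% of the length, with 13.5% ± 0.61 against 12.1% ± 0.18 in the second 10%. More than 50% of the clusters lay in the first 50% of the intron length in every replicate in 91 of 147 members, where the share over all 984 genes with at least 20 clusters in each replicate was 52.1%. Apart from the members and the 9 genes left out by name it was 419 of 828, or 50.6%, with 2 further genes dropped for want of a cluster inside annotated introns. Fewer than 50% lay there in every replicate in 18 of 147 members and in 153 of these 828 other genes. Averaged over replicates, the median share per gene was 60.8% in members and 58.0% in the 828 other genes.

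**Figure D5:**
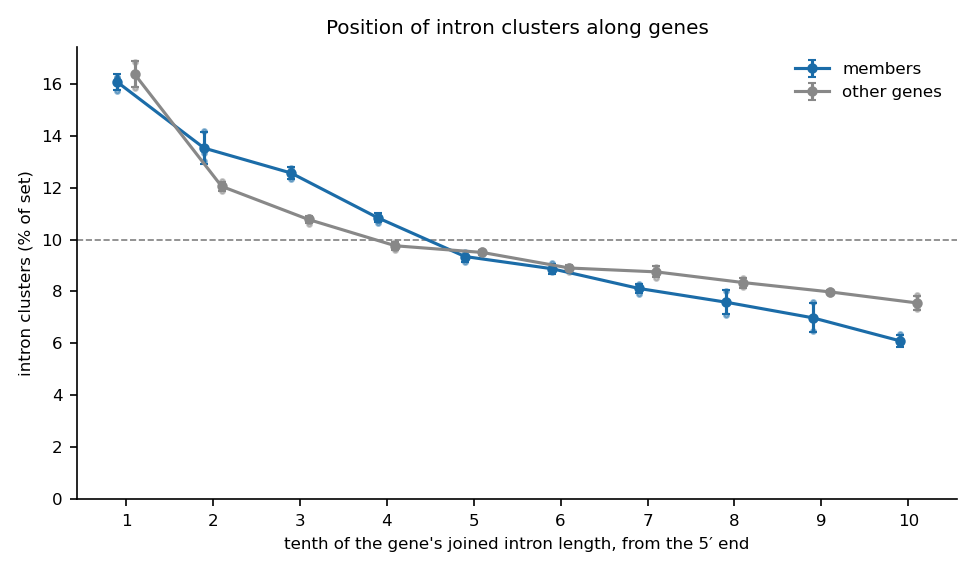
Percent of intron clusters (y axis) in each 10% of the joined intron length from the 5′ end (x axis), for the 147 members (blue) and the other genes (grey); points are means, error bars the SD over 3 replicates, and the dashed line marks an even spread. Members fall from 16.1% in the first 10% to 6.10% in the last.

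Single genes went far to either side. All clusters of NDUFA10 lay in the first 50% of its intron length, as did 97.5% ± 1.48 of those of CAMTA1, 90.8% ± 1.85 in CACNB2 and 89.4% ± 1.66 in ZNRF3, a ligase that removes Wnt receptors. ZFHX3, TNRC6A and LARP1 had 0% there, and these are 3 of the 4 genes whose clusters extended over less than 50% of the span. SMARCC1, at 23.3% ± 0.79, and HDAC9, a histone deacetylase, at 24.6% ± 1.02, were also low.

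The first intron of the longest annotated transcript held 32.6% ± 1.53 of member clusters, where its length is 26.2% ± 0.492 of the intron length when each gene is weighted by its clusters. The difference of 6.40 ± 1.05 percentage points was positive in 3 of 3 replicates (exact two-sided sign-flip test, p = 0.25, the smallest possible; Benjamini-Hochberg adjusted 0.44). The first intron exceeded its length share in all 3 replicates in 76 of 147 members and fell short of it in all 3 in 40. First-intron shares were not computed for other genes. The difference and these counts thus describe the members and do not set them apart. DLGAP1 had 82.0% ± 9.28 of its clusters there against 31.9% of the length. GPHN, which anchors inhibitory receptors and makes molybdenum cofactor, had 73.2% ± 7.88 against 25.7%, and PTPRG 67.6% ± 7.69 against 25.7%. AGO2 had 87.1% ± 2.71 against 49.7%. RUVBL1, an ATPase of chromatin complexes, went the other way with 10.8% ± 2.59 against 38.8%.

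Intron sequence next to exons held fewer clusters than its length share. Within 500 nt of an annotated exon lay 10.3% ± 0.733 of member clusters. The share of intron length there was 13.3% ± 0.425 when each gene is weighted by its clusters. Their ratio was 0.772 ± 0.030. For the other genes the values were 20.3% ± 0.715 against 23.2% ± 0.467, a ratio of 0.872 ± 0.014. Both ratios were under 1 in every replicate, and the members' was the lower in all 3. The median member had 19 introns in its longest transcript, and clusters fell in a median of 9 of them in each replicate.

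The letters under member clusters differed from those of the introns around them. C made up 24.9% ± 0.019 of cluster bases against 20.3% of member introns, and A 21.1% ± 0.195 against 27.0%. T was 32.0% ± 0.870 against 31.1%, and G 22.0% ± 0.686 against 21.6%. The tables require at least 2 conversion locations in a cluster, and a conversion needs a T, so some T is set by the method.

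All 5-mers were compared by their frequency in member clusters over that in member introns, on the transcript strand. The leading ones were TCTTC (log2 ratio 1.40 ± 0.16), CTTCC (1.28 ± 0.07), CTTCT (1.27 ± 0.15), CCTTC (1.21 ± 0.09) and CTCTT (1.16 ± 0.16). Of the leading 20, 18 hold only C and T, as do 32 of all 1024 5-mers. ATCTT had a log2 ratio of 0.66 ± 0.12 and rank 78, from 2.15 ± 0.163 matches per kb in clusters against 1.48 per kb in member introns. AAAAA was the lowest at -2.43 ± 0.08. Overlapping 5-mers share letters, and these ratios carry no test.

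In the remaining measures the clusters of members and other genes differed by little in size. ATCTT per kb of cluster was 2.15 ± 0.163 in members and 2.20 ± 0.148 in others, a difference of -0.0467 ± 0.0151 with the same sign in 3 of 3 replicates (exact two-sided sign-flip test, p = 0.25, adjusted 0.44). The T share differed by 0.0934 ± 0.125 percentage points, less than its spread (exact p = 0.5, adjusted 0.58). Its sign turned to -0.249 against other genes with at least 20 intron clusters in each replicate. The median cluster length was 39.3 ± 2.08 nt in members and 38.3 ± 1.15 nt in others, a difference of 1 ± 1 nt (exact p = 0.5, adjusted 0.58).

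Mean reads per intron cluster were 12.2 ± 0.643 in members and 11.7 ± 0.560 in others. The difference of 0.505 ± 0.234 was positive in 3 of 3 replicates (exact two-sided sign-flip test, p = 0.25, adjusted 0.44). It was 0.0220 ± 0.0786 against other genes with at least 20 intron clusters (exact p = 0.75), and 0.127 ± 0.274 with clusters of at least 3 distinct reads (exact p = 0.5). Among the members the mean ran from 8.93 ± 0.793 reads in PTPRG to 24.3 ± 7.96 in CARS. The conversion rate, the share of T positions in reads that were read as C, was 10.7% ± 0.373 in members and 10.9% ± 0.377 in others. The difference of -0.276 ± 0.0144 points had the same sign in 3 of 3 replicates (exact p = 0.25, adjusted 0.44), but it was 0.0180 against other genes with at least 20 intron clusters. Among the members conversion ran from 8.86% ± 0.465 in SMCHD1, a protein of X inactivation, to 13.9% ± 0.702 in CARS and 13.4% ± 0.498 in VAV2.

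A small share of the members' clusters lay outside introns. Those classed as UTR or coding made up 2.83% ± 0.304 of their clusters and 9.54% ± 0.534 of those of the other genes. This share has the intron count of the rule in its denominator, so it carries no test. The difference of -6.71 percentage points was -1.45 against other genes with at least 20 intron clusters. The median member had 1.33 such clusters per replicate and the median other gene 0.333. ARIH1, a ubiquitin ligase that works with cullins, had the most among the members, a mean of 23. No such cluster was present in 19 of 147 members and 29 of the 107 genes just below the minimum. Among the 7164 other genes with an intron cluster in all 3 replicates 2703 had none.

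Gene lists for pathways with long genes held between 1 and 6 members, where 2.11% of all genes with intron clusters in all 3 replicates passed the minimum. Among genes with 100 to 200 kb of intron 5.15% were members, and among those with 200 to 500 kb 9.44%. Of 20 genes at common fragile sites, very long genes whose replication is easily delayed, AUTS2 and SMYD3 were members, 13 had intron clusters in all 3 replicates, and the median density of these was 0.891 per 100 kb. Over all 7320 genes with clusters in all 3 replicates it was 21.0. The median intron length of these 13 genes was 1096 kb. Other genes with at least 500 kb of intron had a median density of 0.908, close to that of the list. FHIT had 20, 10 and 10 clusters, WWOX 4, 7 and 4, LRP1B 5, 2 and 2, and DLG2 9, 7 and 6, while MACROD2 had none. All 25 listed chromatin regulators had intron clusters in all 3 replicates, with a median of 31.7 clusters, against 7.33 over all genes. Their introns were also longer, with a median of 140 kb against 42.9 kb. Other genes with introns over 100 kb had a median of 12 clusters. KMT2C (68, 73 and 71), EHMT1 (89, 117 and 85), CREBBP (92, 89 and 104), ARID1A, ARID1B (81, 94 and 83) and CHD2 (51, 58 and 57) were members.

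The remaining lists were smaller. Their median intron lengths, over genes with intron clusters in all 3 replicates, lay between 136 and 178 kb. Members were HERC1 (77, 57 and 64) and UBR4 (71, 53 and 76) of 17 ubiquitin ligases, with a list median of 36.3 clusters. CLASP1 (77, 62 and 56) and MAP4 were the members among 15 microtubule and motor genes. The median was 12.5 over the 14 of these with intron clusters in all 3 replicates. RBFOX2, TNRC6A and MSI2 were members among 15 RNA-processing genes, with a list median of 25.7. RPTOR was the member among 12 genes of insulin, TOR and growth factor signalling. Only 8 of these had intron clusters in all 3 replicates, and the median over those 8 was 30.2 clusters. These lists were chosen with results of these data known, and their counts are a description.

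Gene assignment limits some of the values. In 6 members another protein-coding gene overlaps on the same strand, so that clusters there could belong to either: FAM53B, HIRA, LRRC8D, MAD1L1, PINX1 and RPTOR. CARS, IARS and PCNX were matched to the annotation by older symbols.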

How the data were processed

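MATR3 PAR-CLIP read clusters of 3 biological replicates of wild-type HEK293 cells were analysed from one deposited table per replicate. Per the file headers, reads, distinct reads, conversion locations and conversion events per cluster are counts, which were not normalised. The share of T-to-C reads per cluster, also deposited, is a fraction. Annotation classes and gene names are the authors'. The build, hg38, comes from the submitters' processing notes, and the cluster sequences of the members and the left-out genes equalled it in 12921, 12566 and 11897 clusters of the 3 replicates. The aligner, the cluster caller and the annotation release are not given in the sources used here. The tables held 133088, 131679 and 124040 clusters, with 1649124, 1506682 and 1532602 reads. Reads carry no molecular identifiers, so counts may include copies of a molecule, and the depth of the whole libraries is not known here.

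Introns are the annotated gene minus the exons of all its transcripts in GENCODE release 44, and 10282 of 10393 gene names could be matched. First introns come from the longest transcript. Means were compared within each replicate with exact two-sided sign-flip tests, adjusted by the Benjamini-Hochberg method over 7 tests. A test of the share outside introns had been planned and was dropped, because the selecting count is in its denominator. Named genes are, by rule, the 10 members with most clusters, the 6 densest and 6 sparsest, the 6 with most sites, the 4 with the largest and 4 with the smallest coefficient of variation, the 3 nearest to the minimum, 3 just outside it, list members, and the 12 sites with most reads in their lowest replicate. Others were named after their values were seen, and some items that the rule names are not reported here. The members and lists were chosen with earlier results of these data known. The overlap count was tested on simulated data. Analyses used Python 3.11.15 with numpy 2.4.6, pandas 2.3.3 and scipy 1.17.1.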

Additional observations from a re-analysis of the deposited data

How the results depend on the processing

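Over 10 results, 76 alternative settings were computed. Of these, 58 were counted as the same, 11 as moved in size and 7 as reversed in direction. For the tested differences, the same meant only an unchanged sign. For the number of members it meant within a fixed factor of the main value. For density and the difference in clusters outside introns it meant within the SD of the main value over replicates. No p-value entered these labels. The number of genes past the minimum depended most on which clusters count: 33 genes with at least 3 distinct reads, 9 with at least 3 conversion locations, 254 with a minimum of 40, 80 with a minimum of 60, and 156 to 169 when a replicate was left out. The median density per replicate averaged 40.2 clusters per 100 kb. It was 28.9 with at least 3 distinct reads, 21.5 with at least 3 conversion locations, 37.3 per 100 kb of gene span, and 39.0 to 41.7 without a replicate. The difference in clusters found in place over moved, -0.0577 points, was 0.525 with an overlap of 50% of both clusters, 0.229 after moving by 200 nt, and -0.0466 to 0.248 without a replicate, but -0.658 with at least 3 distinct reads, -0.704 with at least 3 conversion locations, -0.506 against other genes with at least 20 intron clusters, -0.310 with the left-out genes as members and -0.293 after moving by 5000 nt. The difference in reads per cluster, 0.505, was 0.0220 against other genes with at least 20 intron clusters, 0.127 with at least 3 distinct reads, 0.234 with at least 3 conversion locations and 0.914 with the left-out genes as members. The difference in ATCTT per kb, -0.0467, ranged from -0.0993 to -0.0133. The difference in T share, 0.0934 points, was -0.200 with the 9 left-out genes as members and -0.249 against other genes with at least 20 intron clusters. The difference in conversion, -0.276 points, was 0.0180 against the same genes. The difference in clusters outside introns, -6.71 points, was -7.66 with at least 3 distinct reads, -7.09 with at least 3 conversion locations, -1.45 against other genes with at least 20 intron clusters and -7.76 weighted by reads. Fewer clusters enter the stricter counts by construction, and for the other changes the cause was not tested. The study has 1 group, so no groups of samples could be compared, and members and other genes were compared within each replicate. With 3 replicates no sign-flip test can pass 0.05, so these p-values say nothing about stability.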
